A study of Mus musculus with 8 samples.

Results

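The proteasome genes were taken from RNA-seq gene counts of AML-12 cells as all rows whose symbol names a proteasome subunit, activator, inhibitor or assembly chaperone (Psma, Psmb, Psmc, Psmd, Psme, Psmf or Psmg followed by a number), leaving out Psmb8 and Psmb9. This rule took 48 of 21983 symbols, among them 17 genes of the 20S core, 20 of the 19S cap, 6 activator or inhibitor genes and 4 assembly chaperones. The remaining match, Psmc3ip, encodes a meiotic recombination factor that was named for binding PSMC3, and it has a role of its own below but is part of the totals over all members. AML-12 is an established line of mouse hepatocytes, derived from animals that carried a human TGF-alpha transgene. The control group was 4 libraries of wild-type AML-12 cells with the pLKO.1 vector, and the other group was 4 libraries of AML-12 cells that overexpressed GM47544, whose titles name no vector. All cells were grown in the same serum-supplemented DMEM, and no treatment, time point or clone is named in the labels. In the title of the series GM47544 is linked to APOC3 ubiquitination, so the comparison bears on transcripts of the machinery that degrades ubiquitinated proteins. Gm47544 itself was not analysed here, so its own level gives no check of the labels. Nothing in the labels tells whether replicate libraries stem from separate cultures, and each p-value below therefore rests on a spread between libraries that may be only technical.

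The proteasome is the protease that degrades most ubiquitinated proteins of the cytosol and nucleus. Its 20S core is a barrel of alpha rings, which gate the entry, around beta rings, which hold the catalytic sites, and its 19S cap binds ubiquitin chains, unfolds the substrate with a ring of ATPases and feeds it into the core. Other caps (PA28 and PA200) can replace the 19S cap, and dedicated chaperones assemble the rings. In most cells the genes of core and cap are controlled together, in large part by the transcription factor NFE2L1, which binds antioxidant response elements in their promoters when proteasome activity is low. In hepatocytes the pathway takes part in the turnover of apolipoproteins as well as of metabolic enzymes.

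Promoter sequence is shown for members in which the core of the antioxidant response element, TGACNNNGC on either strand, was found, because this is the element through which the genes are known to be controlled together. RefSeq promoter windows on GRCm38.p6 were at hand for 37 of the 44 tested members, each from 250 bases before to 50 bases after the annotated start. Psmb1, Psmb2, Psmb7, Psmc3, Psmd3, Psmd7 and Psmg2 had no window and were not searched. Among them is Psmb7, the member with the smallest p of all. The letters were present in 6 of these 37 genes (16.2%), Psmb5, Psmb6, Psmc6, Psmd9, Psmd12 and Psme4, against 17% of 9095 tested genes with a window. The members with the smallest p in the comparison of the groups that carry it upstream of the start were Psmd9 (chr5:123227940-123228189, plus strand), Psmb6 (chr11:70525107-70525356, plus strand) and Psmb5 (chr14:54617996-54618245, minus strand). Their 250 bases before the start read as follows, 5′ to 3′, with the element in capitals.
Psmd9: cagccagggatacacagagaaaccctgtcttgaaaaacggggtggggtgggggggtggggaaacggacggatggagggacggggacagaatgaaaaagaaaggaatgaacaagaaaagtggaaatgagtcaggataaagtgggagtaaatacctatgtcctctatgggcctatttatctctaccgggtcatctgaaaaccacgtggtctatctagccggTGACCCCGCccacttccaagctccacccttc
Psmb6: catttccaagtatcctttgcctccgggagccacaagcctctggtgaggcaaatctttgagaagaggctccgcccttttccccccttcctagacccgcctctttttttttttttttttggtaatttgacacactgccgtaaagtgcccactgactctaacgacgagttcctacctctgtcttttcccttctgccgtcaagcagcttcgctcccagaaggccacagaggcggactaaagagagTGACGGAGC
Psmb5: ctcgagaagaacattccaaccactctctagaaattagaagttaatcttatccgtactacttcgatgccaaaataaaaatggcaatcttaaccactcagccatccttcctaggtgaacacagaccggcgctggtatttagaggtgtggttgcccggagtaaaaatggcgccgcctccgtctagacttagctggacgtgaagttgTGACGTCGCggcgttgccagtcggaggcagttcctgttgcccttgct

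In these windows the element began 31 bases before the start in Psmd9, 9 bases before it in Psmb6 and 47 bases before it in Psmb5. The NF-Y motif CCAAT was present in 12 of the 37 members (32.4%) and in 43.5% of tested genes, and the core of the ETS site, CCGGAAG, in 15 of 37 (40.5%) and in 20.9%, each on either strand. Over all 27025 genes with a window the shares were 14% for the response element, 41.1% for CCAAT and 9.93% for CCGGAAG. These are matches of letters and were not tested as binding sites.

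Library totals ran from 11016907 to 18965662 counts. Of all 11520 genes that passed the count filter, 64.4% were called changed (edgeR quasi-likelihood test, Benjamini-Hochberg adjusted over all tested genes, threshold 0.05), and the median log2 fold change was 4.06e-04. Scaling by library totals alone moved that median to 0.13. Control library 3 stood apart from the other controls, and fold changes also followed transcript length across all genes, as described below for the members. Of the markers of hepatocytes, Hnf4a and Krt8 had control means of 348 and 2170 CPM (counts scaled to a common library size), while Apoa1 had 0.801 CPM and Ahsg had 3 control counts and 0 overexpression counts. Summed over 14 hepatocyte markers the controls had 4824 to 7503 CPM and the overexpression libraries 4556 to 4953 CPM. Of 13 tested markers 5 were called lower and 3 higher. Alb, among the higher ones, rose from a mean of 22.3 to 267 CPM (log2 fold change 3.58). Ttr, among the lower ones, fell from 1321 to 279 CPM (log2 fold change -2.25). Of 6 cholangiocyte markers, Krt19 and Spp1 were abundant, Epcam had 1 count in all, and the sum was 2788 to 4139 CPM against 4475 to 5076 CPM. Of the 4 tested, Krt19 and Sox9 were called lower and only Spp1 higher, from a mean of 943 CPM to 2731 CPM. The sum over 7 macrophage and leukocyte markers was 830 to 1294 CPM in the controls, against 601 to 749 CPM in the overexpression libraries, nearly all of it Cd14, with Ptprc under 1 CPM and Adgre1 and Clec4f at 0. Fibroblast and endothelial markers summed to under 5 CPM in every library. The part of these marker changes in the results below was not tested.

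Most proteasome transcripts were lower in the overexpression libraries, across core, cap and chaperones. Of the 5 tested activator or inhibitor genes, 1 was lower and 1 higher. Of the 44 members tested, 35 were called lower, 1 higher and 8 were not called; 32.1% of all tested genes were called lower and 32.3% higher. The median log2 fold change of the tested members was -0.63, and the 35 lower members fell by 17.8% to 64.4%. Without Psmc3ip, 34 of 43 were called lower and 1 higher. At least 2-fold decreases were found in 7 members, against 9.02% of all tested genes. In 31 members every overexpression value was below every control value, and in 0 the reverse, against 27.5% of all tested genes that were lower without overlap and 28.5% that were higher without overlap. All 4 members outside the test, Psma8, Psmb11, Psme2b and Psmd10, had 0 counts in all 8 libraries. A count of 0 allows up to 0.0509 CPM over the controls and 0.0548 CPM over the overexpression libraries (3 counts over the group, counting error only). Psma8 and Psmb11 are core subunits known from testis and thymus. Psmd10 (gankyrin) is an assembly chaperone of the cap that most cells express, so its 0 may come from how reads were assigned to symbols, and for this gene the limit holds only if its reads were counted. This was not tested.

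**Figure D1:**
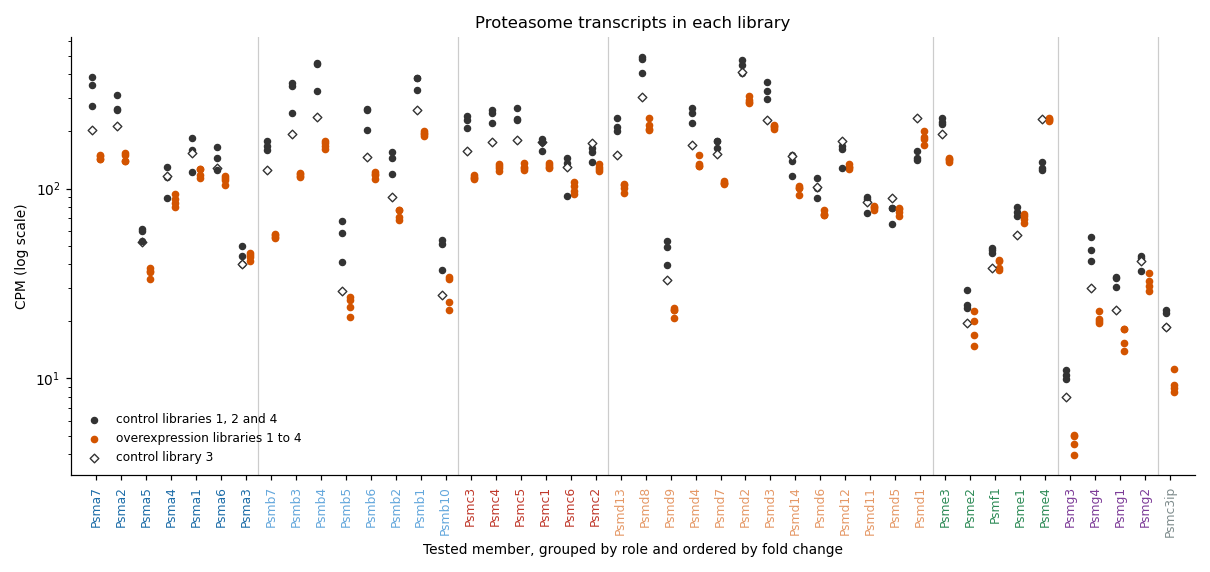
Transcript level (CPM, log scale) of each of the 44 tested members in each library, grouped by role and ordered by fold change within a role; filled dark circles are control libraries 1, 2 and 4, open diamonds control library 3 and orange circles the 4 overexpression libraries. The overexpression values lie below all controls for 31 members, and the open diamond is the lowest control for 29 members.

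The beta subunits form the inner rings of the core, and all 8 tested genes were called lower, against 32.1% of all tested genes. Their log2 fold changes ran from -1.49 to -0.55. Each has a principal transcript under 2000 bases, a length at which 57.4% of tested genes were called lower. With the trend on exonic length removed 5 of the 8 were called lower (median -0.54). With principal transcript length it was 4 of the 8 (median -0.36). Psmb7, the subunit with trypsin-like activity, had the largest decrease of all members. It was at 169, 160, 126 and 179 CPM in control libraries 1 to 4 and at 55, 56.9, 55.5 and 58 CPM in overexpression libraries 1 to 4. The lowest control was thus far above the highest overexpression library, and the log2 fold change was -1.49 (SE 0.12, adjusted p = 1.24e-06). Psmb7 is a minus-strand gene of chromosome 2, positions 38588036 to 38644087 (GRCm38), and 11.8% of its exonic bases are also exonic in Nek6 on the opposite strand. Psmb3, a non-catalytic beta subunit, was at 359, 250, 195 and 349 CPM in the controls, against 116, 119, 121 and 117 CPM in overexpression libraries (log2 fold change -1.29, SE 0.17, adjusted p = 4.30e-05). The annotation holds 7 pseudogene models that match Psmb3 at 90% identity or more over at least 200 bases, so its reads may be shared with them.

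The other catalytic subunits were lower too, with control library 3 closest to the overexpression values. Psmb5, the chymotrypsin-like subunit and the main target of proteasome inhibitors, was at 58.1, 41, 28.8 and 67.1 CPM in the controls, against 26.8, 26.1, 23.7 and 21.1 CPM in overexpression libraries. The groups did not overlap, but control library 3 lay just above the highest overexpression library (log2 fold change -0.99, SE 0.22, adjusted p = 0.00157). Psmb6, the caspase-like subunit, was at 262, 203, 146 and 260 CPM against 119, 112, 123 and 117 CPM (log2 fold change -0.89, SE 0.16, adjusted p = 4.45e-04). With the trend on exonic length removed Psmb6 was still called lower (-0.42) and Psmb5 was not (-0.14). With principal transcript length neither was called (-0.10 and -0.26). Psmb5 shares 12.1% of its exonic bases with Mir686 on the same strand, and Psmb5 and Psmb6 have 2 pseudogene models each. Psmb10 takes the place of Psmb7 in the immunoproteasome, the form induced by interferon. It was at 51.1, 37.2, 27.6 and 53.9 CPM in the controls, against 22.9, 25.3, 33.5 and 34.1 CPM in overexpression libraries. Here the groups overlapped, since control library 3 lay below overexpression libraries 3 and 4 (log2 fold change -0.55, SE 0.21, adjusted p = 0.0324), and the call was lost in 8 of 19 alternatives (adjusted p 1.48e-04 to 0.883), among them without control library 1 or 4 and without overexpression library 1 or 2. Per kilobase of transcript, the ratio of Psmb10 to Psmb7 was 0.234 ± 0.0397 in the controls, against 0.454 ± 0.0853 in the overexpression libraries (SD, n = 4), a ratio of levels that was not tested. The remaining beta genes Psmb4, Psmb2 and Psmb1 had log2 fold changes of -1.12, -0.80 and -0.80.

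Alpha subunits, which form the outer rings and their gate, were called lower for 6 of 7 tested genes, against 32.1% of all tested genes. Their median log2 fold change was -0.38, against -0.94 for the beta genes. This difference was not tested, and with the trend on GC content removed the medians were -0.70 for alpha genes, all 7 of them called lower, and -0.82 for beta genes. Psma7 was at 350, 273, 203 and 386 CPM in the controls, against 143, 150, 148 and 143 CPM in overexpression libraries (log2 fold change -1.05, SE 0.17, adjusted p = 1.61e-04). Psma2 was at 313, 259, 214 and 262 CPM against 140, 140, 151 and 154 CPM (log2 fold change -0.84, SE 0.12, adjusted p = 8.10e-05). For both genes the groups were clearly apart. Psma3, whose product lines the gate, did not pass the test, at 49.7, 40.1, 39.9 and 44.1 CPM in the controls, against 45.6, 44.6, 41.8 and 43.7 CPM in overexpression libraries (log2 fold change 0.017, SE 0.11, adjusted p = 0.902). The overexpression values of Psma3 lay inside the range of the controls, but with the trend on GC content removed it was called lower (-0.45). Psma5, Psma4, Psma1 and Psma6 were called lower with log2 fold changes of -0.65, -0.38, -0.36 and -0.34, and the groups overlapped for Psma1 and Psma4. The calls of Psma1, Psma4 and Psma6 were lost with library totals alone and without control library 1, that of Psma1 also without control library 2, those of Psma1 and Psma4 without overexpression library 1, and those of Psma1 and Psma6 without overexpression library 2.

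The ATPases of the 19S cap, which unfold the substrate, were called lower for 5 of 6 genes (median log2 fold change -0.59), against 32.1% of all tested genes. Psmc3 was at 229, 209, 158 and 241 CPM in the controls, against 116, 117, 113 and 113 CPM in overexpression libraries (log2 fold change -0.87, SE 0.13, adjusted p = 1.09e-04). Psmc5 was at 231, 233, 180 and 266 CPM against 137, 129, 129 and 126 CPM (log2 fold change -0.80, SE 0.12, adjusted p = 1.24e-04). Both genes were lower in all overexpression libraries than in any control. Psmc6 did not pass the test, at 145, 136, 130 and 91 CPM in the controls, against 93.5, 97.2, 109 and 103 CPM in overexpression libraries (log2 fold change -0.32, SE 0.14, adjusted p = 0.0607). It was control library 4 that lay below all overexpression values of Psmc6, and without that library the gene was called lower, as it was in 6 of 19 alternatives (adjusted p 7.51e-05 to 0.266). Psmc4, Psmc1 and Psmc2 were called lower with log2 fold changes of -0.81, -0.39 and -0.29, the last lost in 8 of 19 alternatives, among them the omission of control library 1 or 2 or of overexpression library 2, 3 or 4.

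Among the 13 tested non-ATPase genes of the cap, 10 were called lower and 3 were not called (median log2 fold change -0.52), where 32.1% of all tested genes were called lower. Psmd13, a scaffold subunit of the lid, was at 212, 201, 150 and 235 CPM in the controls, against 104, 101, 106 and 95 CPM in overexpression libraries (log2 fold change -0.98, SE 0.13, adjusted p = 5.41e-05). Psmd8, also of the lid, was at 484, 407, 303 and 493 CPM against 236, 207, 205 and 216 CPM (log2 fold change -0.97, SE 0.15, adjusted p = 1.12e-04). Neither gene showed overlap of the groups. Psmd9, a chaperone of the cap that shares the Psmd symbol, had a log2 fold change of -0.95, and 25.5% of its exonic bases are shared with the lincRNA gene Gm26745 on the opposite strand. The ubiquitin receptor Psmd4 had -0.73, the scaffold subunit Psmd2 had -0.58, and Psmd14, the deubiquitinase that removes the chain from the substrate, had -0.49. Psmd7, the partner of Psmd14, had -0.65, and the lid genes Psmd3, Psmd6 and Psmd12 had -0.52, -0.46 and -0.28. The Psmd12 call (adjusted p = 0.0463) was lost in 11 of 19 alternatives (adjusted p 3.58e-05 to 0.949), among them the omission of control library 1 or 2 or of any overexpression library.

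The cap genes that were not called were Psmd1, Psmd5 and Psmd11. Psmd5, another chaperone of the cap, was at 79.3, 78.8, 89.3 and 65 CPM in the controls, against 71.3, 75.1, 78 and 78.9 CPM in overexpression libraries (log2 fold change -0.043, SE 0.12, adjusted p = 0.758). The overexpression values of Psmd5 lay within the control range, but it was called lower with the trend removed on exonic length (-0.32), principal transcript length (-0.28) or GC content (-0.33). Psmd1, the large scaffold of the base, was at 145, 158, 236 and 142 CPM in the controls, against 202, 186, 170 and 183 CPM in overexpression libraries (log2 fold change 0.12, SE 0.16, adjusted p = 0.503). Control library 3 was the highest of all 8 libraries for Psmd1, and without it the gene was called higher at a log2 fold change of 0.29 (adjusted p = 0.00298; 0.00298 to 0.837 over 19 alternatives). Psmd11, which stabilises the complex of core and cap, had a log2 fold change of -0.094 and was called lower with the trend on exonic length (-0.31) or GC content (-0.32) removed.

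Of the 5 tested activator and inhibitor genes, 1 was lower, 1 higher and 3 were not called, against 32.1% lower and 32.3% higher of all tested genes. Psme3 encodes PA28-gamma, the nuclear cap that acts without ubiquitin. It was at 220, 226, 194 and 236 CPM in the controls, against 142, 145, 143 and 138 CPM in overexpression libraries, with no overlap (log2 fold change -0.62, SE 0.10, adjusted p = 1.94e-04). Psme4 encodes PA200, a cap linked to histone degradation, and was the only member called higher. It was at 126, 138, 234 and 129 CPM in the controls, against 233, 234, 231 and 227 CPM in overexpression libraries (log2 fold change 0.56, SE 0.18, adjusted p = 0.0136). Control libraries 1, 2 and 4 lay far below the overexpression values of Psme4, whereas control library 3 lay among them. Without control library 3 the log2 fold change was 0.79, and without control library 1 the call was lost (adjusted p = 0.0524; 4.55e-09 to 0.458 over 19 alternatives). The call was also lost with the trend on GC content removed (0.14), on exonic length (0.24) and on principal transcript length (0.11). Psme4 is a plus-strand gene of chromosome 11, positions 30771726 to 30880361. The ratio of Psme3 to Psme4 per kilobase was 4.25, 3.98, 2.02 and 4.48 in controls and between 1.48 and 1.51 in overexpression libraries, not tested.

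The interferon-inducible PA28 subunits were not called. Psme1 was at 75.4, 71.5, 56.9 and 79.9 CPM in the controls, against 66, 68.9, 71.5 and 73.1 CPM in overexpression libraries (log2 fold change -0.020, SE 0.12, adjusted p = 0.895), inside the control range. Psme1 was called higher with the trend removed on exonic length (0.36), principal transcript length (0.58) or GC content (0.28). Psme2, its partner and neighbour on chromosome 14, was not called at -0.37 on the log2 scale (SE 0.16, adjusted p = 0.0603). It was called lower in 5 of 19 alternatives, including the omission of control library 3 or overexpression library 3 (adjusted p 0.00305 to 0.504). With the trend on exonic or principal transcript length removed Psme2 turned to 0.11 and 0.30 and was not called. Psmf1 (PI31), known as an inhibitor of the core in vitro, had -0.18 and was called lower in 5 of 19 alternatives, among them both length corrections and the omission of control library 3 (adjusted p 0.00598 to 0.721). Of the 13 listed genes of the immunoproteasome and antigen presentation, which include these, 10 were tested, 3 were lower and 3 higher (median -0.22), close to the 32.1% and 32.3% of all tested genes. B2m, the light chain of class I molecules, had a log2 fold change of -0.88 and Irf1, an interferon-induced factor, 0.53, while Tap1 had 1 control count and 4 overexpression counts.

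All 4 assembly chaperones of the core were called lower (median log2 fold change -0.98), against 32.1% of all tested genes. The groups did not overlap for any of them, where 27.5% of all tested genes were lower without overlap. Psmg3 was at 10.4, 9.92, 8 and 11.1 CPM in the controls, against 4.97, 4.52, 5.06 and 3.95 CPM in overexpression libraries (log2 fold change -1.09, SE 0.16, adjusted p = 9.60e-05). Its dimer partner Psmg4 was at 47.6, 41.8, 30.1 and 55.8 CPM against 22.7, 19.6, 20.1 and 20.6 CPM (log2 fold change -1.08, SE 0.17, adjusted p = 1.45e-04). These chaperones act on the alpha ring together with the dimer of Psmg1 and Psmg2. Psmg1 had a log2 fold change of -0.88, and Psmg2 was at 43.1, 43.9, 41.8 and 36.7 CPM in the controls, against 28.9, 32.7, 35.8 and 30.6 CPM in overexpression libraries (log2 fold change -0.37, SE 0.12, adjusted p = 0.0144). For Psmg2 the highest overexpression library came close to the lowest control, and the call was lost with library totals alone and without overexpression library 4. With the trend on exonic or principal transcript length removed only Psmg3 of the 4 chaperones was called lower: Psmg1 had -0.26 and -0.25, Psmg4 -0.038 and -0.12, and Psmg2 turned to 0.10 and 0.23. Psmc3ip, the match that is no part of the proteasome, fell by 1.12 on the log2 scale (SE 0.14, adjusted p = 2.75e-05).

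Summed over its genes, the core had 3138, 2525, 2019 and 2983 CPM in control libraries 1 to 4 and 1437, 1451, 1515 and 1502 CPM in overexpression libraries 1 to 4. The cap had 3802, 3688, 3282 and 3845 CPM against 2527, 2457, 2435 and 2460 CPM. Every overexpression library was thus below every control in both parts, while the core sums of the controls were spread far more widely than those of the overexpression libraries. The activators and the inhibitor together had 493 to 542 CPM in the controls, against 495 to 510 CPM in the overexpression libraries, and the chaperones 103 to 138 CPM and 69.2 to 79.1 CPM. The ratio of core to cap sums was 0.725 ± 0.0937 in the controls, against 0.598 ± 0.0235 in the overexpression libraries (SD, n = 4), and control library 3, at 0.615, lay within the range of the overexpression libraries. All members together held 0.602% to 0.700% of counts in controls and 0.471% to 0.477% in overexpression libraries. In bulk libraries, fewer cells of a type and less RNA per cell cannot be told apart.

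**Figure D2:**
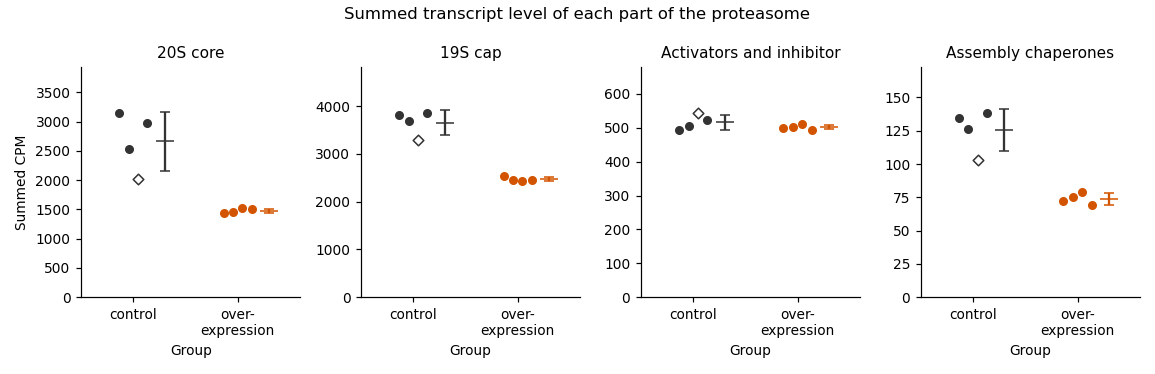
Summed level (CPM) of the 20S core, the 19S cap, the activators with the inhibitor, and the assembly chaperones in each library; circles are single libraries, the open diamond is control library 3, and the bars give the mean and SD of 4 libraries. Core, cap and chaperone sums are lower in all 4 overexpression libraries than in any control, and the activator sums overlap.

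The controls differed among themselves in the same genes. Control library 3 was the lowest control for 29 of 44 tested members and the closest to the overexpression mean for 28, but the highest control for Psmc2, Psmd1, Psmd5, Psmd12 and Psme4. Control library 4 was the highest control for 24 members and the lowest for 11, among them Psma1, Psma4, Psma6 and Psmc6. The coefficient of variation was larger in controls than in overexpression libraries for 41 members, with medians of 16% and 4.47%. Without control library 3, 38 members were called lower and 2 higher (Psme4 and Psmd1), where 38.7% of 11631 tested genes were called in each direction. The median of the cap genes was then -0.64.

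Levels per kilobase of the principal transcript differed widely among subunits that enter the complex in equal numbers. In controls the highest was Psmb3 at 376 ± 104 CPM per kilobase, followed by Psma7 at 332 ± 89.1 and Psmb4 at 312 ± 89.5 (SD, n = 4), neighbours that did not differ beyond their spread. The lowest core gene tested was Psma3 at 15.3 ± 1.62, so the highest core gene was 24.7 times the lowest. In overexpression libraries this ratio was 10.4, from Psma7 at 160 ± 4.03 to Psma3 at 15.4 ± 0.573 CPM per kilobase. The median level was 136 CPM per kilobase over the core genes and 100.5 over the cap genes in controls, and 85.4 and 68.6 in overexpression libraries. Of the 44 tested members, 13 have at least 1 pseudogene model at 90% identity or more over at least 200 bases (3 for Psma3), and the annotated transcript may not be the one used in these cells, so levels between genes are approximate.

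Fold changes of the members followed the length of their transcripts, as those of all genes did. Of the 32 tested members with a principal transcript under 2000 bases, 30 were called lower and 0 higher, with a median log2 fold change of -0.80. Among all 3067 tested genes of that length 57.4% were called lower and 12.8% higher, with a median of -0.51. The other 12 members had 5 lower and 1 higher with a median of -0.25, where 22.8% of 8412 genes were lower and 39.4% higher with a median of 0.17. Across the 44 members the log2 fold change had a Pearson correlation of 0.61 and a Spearman correlation of 0.52 with length, and across 11479 tested genes 0.36 and 0.44. Genes within a library share its RNA quality, fragment sizes and depth and are not independent replicates, so these are descriptions. In 20 bins of length with equal numbers of genes, 31 of 44 members lay below the median of their bin, 16 of 19 for the cap, 9 of 15 for the core, 3 of 4 chaperones and 2 of 5 activators. Core, cap and chaperones each held mostly transcripts under 2000 bases, a length range where lower calls were common. The part of length in their change was not tested.

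**Figure D3:**
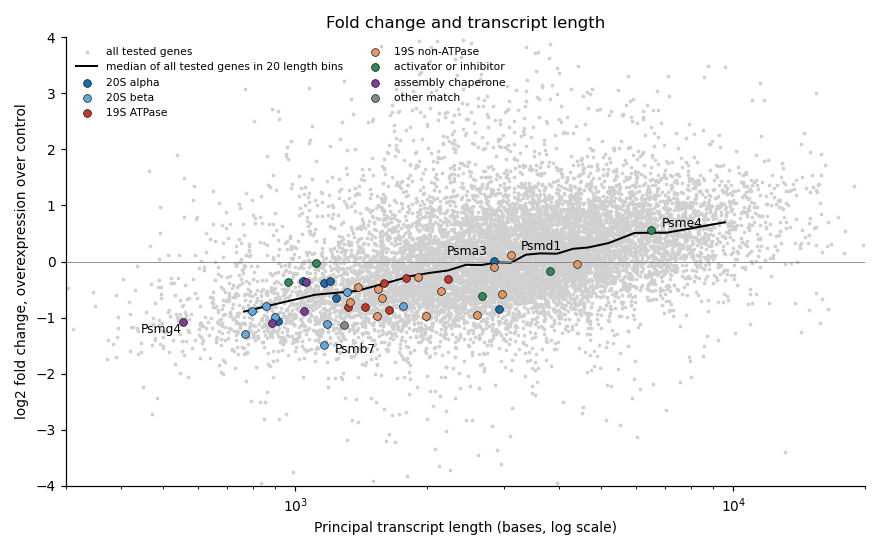
log2 fold change (overexpression over control) against the length of the principal transcript (bases, log scale) for all tested genes (grey), with the median of 20 length bins as a line and the 44 tested members coloured by role; 77 genes lie outside the axes. The median line rises with length, Psmg4 and Psmb7 lie among the short transcripts and Psme4 among the longest.

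When the trend on exonic length was removed from each library, 23 members were called lower and 2 higher, against 31.1% and 29.4% of all tested genes, and the median of the members was -0.30. The order of the parts turned: the core median was -0.14 and the cap median -0.32, where without the correction they were -0.80 and -0.52. Psma6 and Psme1 were the members then called higher, with log2 fold changes of 0.31 and 0.36, and Psme4 had 0.24 and was not called. Psmb5, Psmb2, Psmg4 and Psma5 had -0.14, -0.11, -0.038 and -0.032 after the correction and were not called either. Psmb7, Psmb3, Psmd13 and Psmd8 were still lower at -1.34, -0.91, -0.81 and -0.74. In all, 18 members kept their lower call with exonic length and also with principal transcript length, namely Psma2 and Psma7, Psmb1, Psmb3, Psmb4 and Psmb7, Psmc3, Psmc4 and Psmc3ip, Psmd2, Psmd3, Psmd4, Psmd7, Psmd8, Psmd9 and Psmd13, Psme3 and Psmg3. The share of all tested genes that kept a lower call in this way was not counted.

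**Figure D4:**
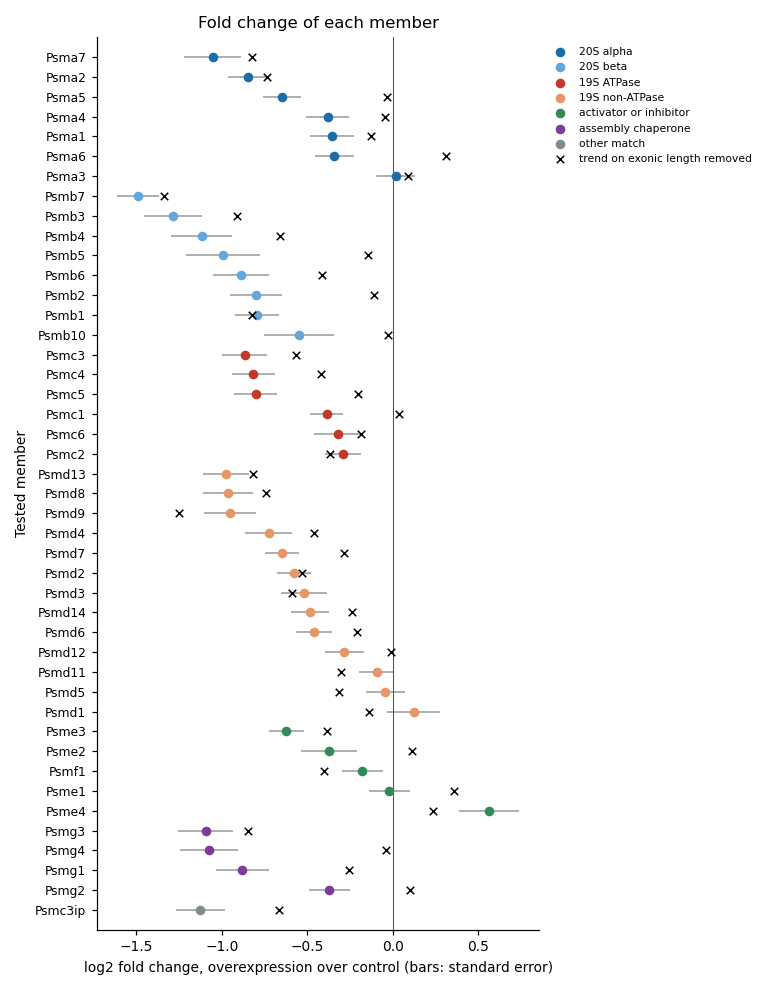
log2 fold change of each tested member (overexpression over control) with its standard error, coloured by role, and the value after the trend on exonic length was removed (crosses). Most coloured points lie left of 0, and the crosses of the core genes lie closer to 0 than their points, except for Psmb1 and Psma3.

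Partners of the proteasome outside the symbol rule were lower for 9 of 18 genes found and higher for 3 (median log2 fold change -0.26), against 32.1% and 32.3% of all tested genes. The 3 higher genes, Ecpas, Zfand5 and Ddi2, have principal transcripts of 7045, 7385 and 9553 bases, in the length range where 39.4% of genes were higher. Pomp, the maturation factor of the core, averaged 129 ± 25.2 CPM in the controls, against 52.7 ± 3.30 CPM in the overexpression libraries (SD, n = 4; log2 fold change -1.29, SE 0.14). The small cap subunit Sem1 had a log2 fold change of -1.09, the ubiquitin receptor Adrm1 -0.51 and the deubiquitinase Uchl5 -0.59. The other deubiquitinase of the cap, Usp14, had 0.24 and was not called. Zfand5, an activator of the proteasome, rose by 1.14 on the log2 scale, while the stress-induced Zfand2a had -1.42. Ecpas, which tethers proteasomes to membranes, rose by 0.79.

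Genes that control NFE2L1 and the response element were lower for 6 of 15 tested and higher for 6 (median log2 fold change 0.16), near the 32.1% and 32.3% of all tested genes. Nfe2l1 itself was lower, at 304 ± 8.55 CPM with overexpression against 439 ± 42.0 CPM in controls (SD, n = 4; log2 fold change -0.53, SE 0.10), and its relative Nfe2l2 rose from 162 ± 15.5 to 232 ± 18.1 CPM (log2 fold change 0.51, SE 0.11). The small MAF partners Maff, Mafk and Mafg had -1.32, -1.10 and -0.30, and Keap1 and Hcfc1, also called lower, had -0.58 and -0.35. Called higher were Ogt, Fbxw7, Btrc and Sel1l, at 1.53, 0.65, 0.64 and 0.43. Ddi2, the protease that activates NFE2L1, had 0.75 and was called higher. Ngly1 and Vcp, which take part in the processing of NFE2L1, had 0.17 and 0.16 and were not called.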

How the data were processed

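RNA-seq of 8 libraries was deposited by the authors as a single matrix of raw counts with gene symbols as rows, whole numbers without any normalization. Trizol extraction and an NEBNext Ultra library kit were used, per the labels' protocols. Per the submitters' processing notes, FastQC, STAR and HTSeq were used with the mm10 build; the sources used here do not give versions, annotation or strand setting. Groups came from the sample titles. The test was the two-sided quasi-likelihood F-test of edgeR 4.0.16 (R 4.3.3), with no covariate beside group and TMM scaling, on the 11520 genes that filterByExpr (minimum count 10) kept of 16281 that had any count. Each standard error was obtained by dividing the log2 fold change by root F. Coordinates and lengths came from GENCODE M21 (GRCm38), which matched 21926 of 21983 symbols and all 48 members. The principal transcript was the longest at the best APPRIS level. A trend on length or GC content was a lowess fit (span 0.3) per library, GC content being that of the annotated transcripts, since no genome was used here. Members and gene lists were chosen with earlier results of these data known. Named members were the catalytic core genes, the 2 smallest and the largest p of each role, each higher call and each untested member. Of 21 listed partners, 18 symbols were found. On simulated counts of control against overexpression over 11447 genes, 50 genes were changed at each fold. The test recovered 56% at 1.5-fold and 98% at 2-fold, with 6 false calls. In the data themselves 64.4% of tested genes were called, so these shares may not hold there. Alternatives used limma 3.58.1 and DESeq2 1.42.0. The pairs of libraries within a group differed by a chi-square of 2.41 to 102 per gene, so none matched within counting noise. Figures were drawn with matplotlib 3.10.9.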

Additional observations from a re-analysis of the deposited data

Results flagged for a closer look

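Among the 88 sets of 4 values formed by the tested members in each group, 3 held a library far from the other 3, where chance alone flags about 1 in 20. Psmd1 was at 236 CPM in control library 3 and at 142 to 158 CPM in the other controls. Psme4 was at 234 CPM in control library 3 and at 126 to 138 CPM in the other controls. The principal transcripts of Psmd1 and Psme4 have 3112 and 6491 bases, against a median of 2993 over all tested genes with a length. Control library 3 also stood apart over all members. Psmd4 was at 150.1 CPM in overexpression library 1 and at 132 to 134 CPM in the others.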

How the results depend on the processing

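Across 19 alternatives the members called lower stayed within 1.5 times the 35 reported except with a length correction. They were 23 with exonic length, where 31.1% of all tested genes were lower. With principal transcript length, a setting chosen after seeing the data, they were 21, where 30.9% of all tested genes were lower. The members called higher, 1 as reported, were 2 with limma-voom, 2 with either length correction and 0 to 2 with 1 library left out (0 without control library 1 and 2 without control library 3). With 1 library left out the members called lower were 29 to 38, where 28.5% to 38.7% of all tested genes were lower. The median log2 fold changes with exonic and then principal transcript length were -0.30 and -0.24 for tested members, -0.14 and -0.13 for the core, -0.32 and -0.28 for the cap, -0.15 and -0.19 for the chaperones, and 0.11 and 0.11 for activators and inhibitor, which turned direction. With library totals alone they were -0.50 for tested members, -0.38 for the cap and -0.046 for activators and inhibitor, and 58.4% of calls over all genes were then higher, against 50.2%. The cap median was -0.64 to -0.49 with 1 library left out. Directions turned with exonic length for Psma6 (0.31), Psmc1 (0.035), Psme1 (0.36) and Psmg2 (0.10), with principal transcript length for Psma1 (0.18), Psma4 (0.17), Psma6 (0.28), Psme1 (0.58) and Psmg2 (0.23), and with GC content for Psma3 (-0.45) and Psme1 (0.28); turns between values that were never called are not counted here. The cause was not tested. Over the 44 tested members and 19 alternatives, 836 combinations in all, 724 kept call and direction, 68 lost the call, 27 gained one, 2 turned from lower to higher, and 15 changed direction without being called either way. With the replicate number as a block 33 members were lower and 1 higher, the calls of Psmc2 and Psmd12 being lost. Of all tested genes 29.9% were lower in that fit. The same-numbered libraries correlated at -0.119 to 0.0227 in their deviations from the group means. No control library had its best match in the overexpression library of its own number. With 4 libraries per group this does not tell whether the numbers mark a shared culture or day. For the members at 0 counts depth limits what could be detected, if their reads were counted at all.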
